A study of Drosophila melanogaster with 12 samples.

Results

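Genes residing in pericentromeric heterochromatin of Drosophila melanogaster were followed in ovary RNA across 6 groups. The 9 genes were lt, cta, rl, Nipped-A, Nipped-B, Dbp80, Parp, l(2)41Ab and uex, all among the 15446 genes counted. They were chosen by name, with earlier results of these data known. Each group held 2 libraries. The wild-type stocks were attp2 and W1118. A knockdown reduced nxf2 in the germline, and a mutant labelled nxf2 -/- had been made with CRISPR/Cas9. A heterozygote labelled nxf2 +/- and a mutant labelled nxf2 -/- both carried Panx FL10B, which the labels call tethered. The sources used here do not give the meaning of FL10B, the driver of the knockdown, the number of mutant lines or how many flies were pooled. Females in every group had yeast and were held at 25°C, with an age given as 3 to 5 without a unit.

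Pericentromeric heterochromatin is the repeat-rich chromatin that flanks centromeres, packed with methylated histones and the protein HP1a. Most genes moved next to it are silenced, but genes that normally lie within it, of which lt and rl are the classic fly examples, depend on it and lose expression when moved away. In the ovary, nxf2 and Panx act with Piwi and its piRNAs to silence transposons at the level of transcription and to lay down the same kind of chromatin.

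Total counts ran from 3811630 to 11260925 per library, so that 3 counts stood for 0.275 to 0.772 CPM, the read count relative to library size after scaling by the trimmed mean of M values (TMM). nxf2 was lower in the knockdown (18.1 against 42.6 CPM in attp2, adjusted p = 0.000158) and in the mutant (31.7 against 69.1 CPM in W1118, adjusted p = 0.000152). With Panx FL10B it stood at 30.2 CPM in the mutant and 35.2 CPM in the heterozygote (adjusted p = 0.334), so nxf2 RNA does not check the genotype of those libraries. Panx, listed as CG9754, averaged 339 CPM in the heterozygote that carried Panx FL10B and 295.5 CPM in the mutant that carried it, against 39.8 to 229 CPM in groups without it. The 6 germline markers summed to between 2482 and 3468 CPM in every library. The labels do not state whether replicates were separate dissections, so the p-values reflect the spread between these libraries alone, which may be technical. In bulk ovary, fewer cells of a type and less RNA per cell cannot be told apart.

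The 9 genes lie on 4 chromosome arms in the Release 6 annotation, which is newer than the dm3 genome the submitters used and is used here only for names, order and lengths. lt and cta are on 2L. rl, l(2)41Ab, uex, Nipped-B and Nipped-A follow each other in that order away from the centromere of 2R. Dbp80 is on 3L and Parp, now named Parp1, on 3R. They share a structure that the choice of genes did not use, since exons fill little of their length: from 70.7% of the span of lt to 98.3% of that of Dbp80 is not exonic. Transposons annotated by Ensembl lie within the spans of 7 of the 9 genes, from 2 in uex to 55 in Nipped-A, and none within lt or cta. uex shares 960 exonic bases with an antisense gene on the opposite strand, and since use of strand in the counting is not given, its counts are uncertain. Genes that overlap the introns of Dbp80 and l(2)41Ab were not analysed here.

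Per kilobase of exon, the mean level over the 6 groups was highest for Nipped-B, at 67.3 CPM per kb, followed by cta at 56.9 and uex at 51.3 CPM per kb. Parp had 42.6, Nipped-A 27.2, Dbp80 21.9 and lt 12.3 CPM per kb. l(2)41Ab and rl were the lowest, both at 11.1 CPM per kb. Every member differed among the 6 groups by edgeR's quasi-likelihood F test (adjusted p from 3.51e-10 for l(2)41Ab to 0.00505 for uex), but so did 84.8% of the 8638 genes tested. The highest group mean was 18.4-fold above the lowest in l(2)41Ab and between 1.81-fold in uex and 3.06-fold in cta for the others.

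**Figure D1:**
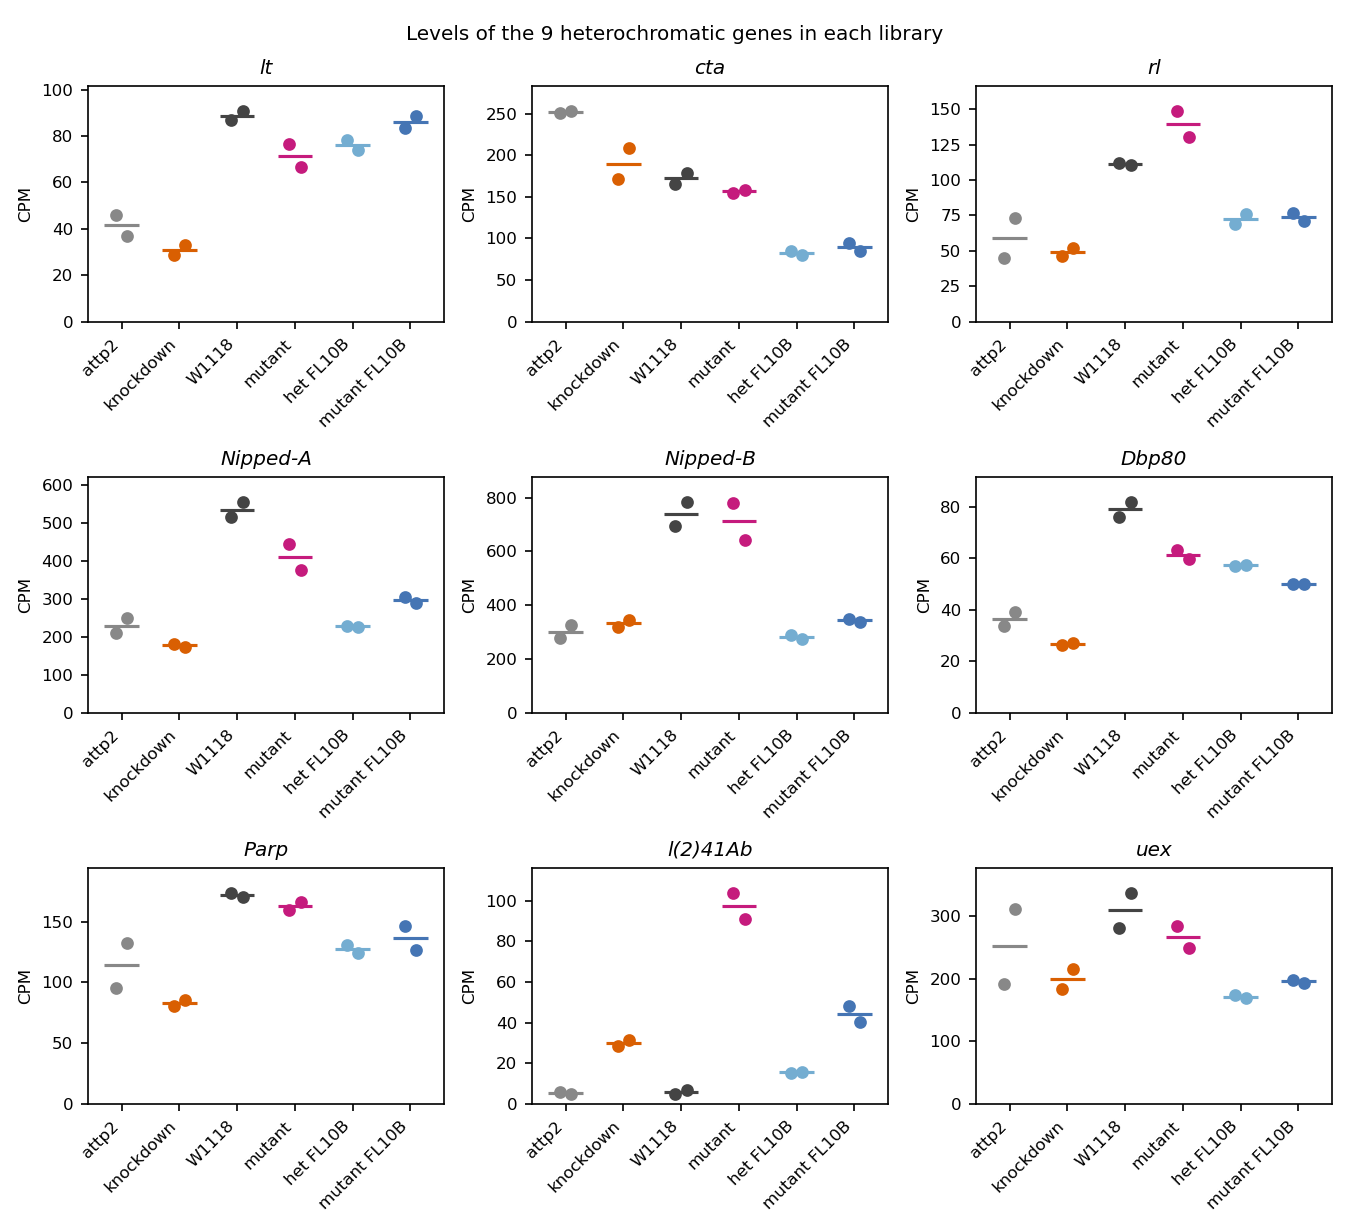
Level of each of the 9 genes (CPM, vertical axis starting at 0) in every library, by group (horizontal axis; het and mutant FL10B are the groups with Panx FL10B). Points are libraries and lines are means of 2. In l(2)41Ab the mutant libraries, at 103.8 and 90.9 CPM, stand above all others, whereas in 6 of the other panels W1118 has the highest mean.

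l(2)41Ab rose wherever nxf2 was reduced or lost. Its attp2 libraries held 5.75 and 4.85 CPM, against 28.7 and 31.5 CPM in those of the knockdown. The level was 4.89 and 6.74 CPM in W1118, against 103.8 and 90.9 CPM in the mutant. With Panx FL10B, the heterozygote had 15.3 and 15.5 CPM and the mutant 48.2 and 40.0 CPM. The wild-type stocks overlapped, and each nxf2-deficient group lay wholly above its control. The rise was 5.66-fold in the knockdown (log2 fold change 2.50, SE 0.17, adjusted p = 1.23e-06), 16.2-fold in the mutant (4.02, SE 0.18, adjusted p = 5.48e-09) and 2.87-fold with Panx FL10B (1.52, SE 0.16, adjusted p = 1.75e-05). By p-value it was the 6th of the 8638 genes in the knockdown and also the 6th in the mutant. Each of these 3 calls held under every alternative run, with the log2 fold change between 2.33 and 2.63, 3.85 and 4.31, and 1.38 and 1.65.

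The size of the l(2)41Ab rise differed between the comparisons. In the mutant it exceeded that in the knockdown by a log2 of 1.52 (SE 0.26, adjusted p = 0.00141), in a comparison where 27% of all genes tested differed. With Panx FL10B it was smaller than in the mutant by a log2 of 2.50 (difference -2.50, SE 0.25, adjusted p = 1.13e-05), where 21.2% of genes differed. The controls of that second difference were not alike, as the heterozygote with Panx FL10B averaged 15.4 CPM and W1118 5.81 CPM (log2 1.36, adjusted p = 0.000254). The mutant with Panx FL10B in turn lay below the mutant (log2 -1.14, adjusted p = 2.23e-05). From the raw counts, the gene had 62 and 53 reads in attp2 and 19 and 44 in W1118, against 928 and 700 in the mutant.

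lt encodes Vps41, a subunit of the HOPS complex that tethers vesicles to late endosomes. Its attp2 libraries held 45.8 and 37.1 CPM and those of the knockdown 28.7 and 32.9 CPM. W1118 stood at 87.0 and 90.7 CPM, against 76.4 and 66.5 CPM in the mutant. Under Panx FL10B the heterozygote had 78.1 and 74.1 CPM and its mutant 83.3 and 88.7 CPM. The attp2 and knockdown libraries were thus below all 8 others. The knockdown fell below attp2 (log2 -0.43, SE 0.13, adjusted p = 0.0391). The mutant libraries lay below those of W1118 without passing the test (log2 -0.31, SE 0.12, adjusted p = 0.0748), and with Panx FL10B the difference was 0.18 (SE 0.12, adjusted p = 0.351). W1118 stood at 2.15-fold of attp2 (log2 1.10, SE 0.13, adjusted p = 7.81e-06).

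cta encodes the G protein alpha subunit that acts downstream of Fog in the shape changes of gastrulation, and its product is loaded into the egg. Its attp2 libraries held 250.4 and 252.9 CPM and those of the knockdown 171 and 209 CPM. W1118 stood at 165 and 179 CPM, against 155 and 158 CPM in the mutant. Under Panx FL10B the heterozygote had 85.0 and 79.8 CPM and its mutant 95.1 and 85.2 CPM, below all 8 other libraries. It was the one member with its highest level in attp2 and it fell in the knockdown (log2 -0.40, SE 0.10, adjusted p = 0.0205). The mutant lay 0.14 below W1118 on the log2 scale (SE 0.11, adjusted p = 0.352; log2 fold change -0.14, 95% interval -0.37 to 0.09), and with Panx FL10B the difference was 0.13 (SE 0.11, adjusted p = 0.446). W1118 was lower than attp2 (log2 -0.54, SE 0.11, adjusted p = 0.000643).

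rl encodes the ERK MAP kinase at the end of the Ras pathway. Its attp2 libraries, at 45.2 and 72.9 CPM, spanned those of the knockdown, at 46.1 and 52.3 CPM. W1118 held 112 and 110.3 CPM and the mutant 148 and 130.0 CPM, while the Panx FL10B libraries held 68.7 and 76.1 CPM in the heterozygote and 76.8 and 71.1 CPM in the mutant. No nxf2 comparison passed the test for rl, with log2 differences of -0.26 in the knockdown (SE 0.17, adjusted p = 0.319), 0.33 in the mutant (SE 0.17, adjusted p = 0.171) and 0.03 with Panx FL10B (SE 0.17, adjusted p = 0.938). W1118 exceeded attp2 by a log2 of 0.91 (SE 0.17, adjusted p = 0.00052).

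The chromatin regulators named for their Nipped wing phenotypes were among the most different between stocks. Nipped-A encodes the fly Tra1, a large scaffold shared by the Tip60 and SAGA histone acetyltransferase complexes. Its attp2 libraries held 209.9 and 248 CPM and those of the knockdown 182 and 174 CPM. W1118 stood at 516 and 554 CPM, against 444 and 377 CPM in the mutant. Under Panx FL10B the heterozygote had 228 and 226 CPM and its mutant 304 and 290.0 CPM. In none of the 3 nxf2 comparisons did its libraries overlap, but the direction was not the same: Nipped-A fell in the knockdown (log2 -0.36, SE 0.11, adjusted p = 0.036) and in the mutant (-0.38, SE 0.11, adjusted p = 0.0174) and rose with Panx FL10B (0.39, SE 0.11, adjusted p = 0.0225). The effect with Panx FL10B exceeded that in the mutant by a log2 of 0.77 (SE 0.15, adjusted p = 0.00299). The difference lay between 0.66 and 0.89 in the 15 alternatives run, none of which exchanged the stocks. Against attp2 in place of W1118 the mutant effect was 0.84, above the 0.39 with Panx FL10B. The controls were not alike either, as the heterozygote with Panx FL10B lay below W1118 (log2 -1.24, adjusted p = 1.79e-06). W1118 had 2.33-fold of the level in attp2 (log2 1.22, SE 0.11, adjusted p = 8.82e-07).

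Nipped-B encodes the protein that loads cohesin onto chromosomes together with Mau2. Its attp2 libraries held 276 and 327 CPM and those of the knockdown 319.8 and 345 CPM. W1118 stood at 695 and 783 CPM, against 781 and 643 CPM in the mutant. Under Panx FL10B the heterozygote had 288 and 273 CPM and its mutant 349.7 and 337 CPM. The libraries of the knockdown and of the mutant overlapped those of their controls, and those of the mutant with Panx FL10B lay above the heterozygote. The log2 differences were 0.14 in the knockdown (SE 0.12, adjusted p = 0.437), -0.05 in the mutant (SE 0.12, adjusted p = 0.768) and 0.29 with Panx FL10B (SE 0.12, adjusted p = 0.0971), and none passed. Between stocks it differed most of the 9 genes, at 2.45-fold (log2 1.29, SE 0.12, adjusted p = 1.16e-06).

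Dbp80, a DEAD box RNA helicase related to the Dbp5 helicase that releases mRNA at the nuclear pore in yeast, differed between replicates by 15.1% of their mean at most. The attp2 libraries held 33.8 and 39.3 CPM and the knockdown 26.1 and 27.1 CPM. W1118 stood at 76.2 and 81.8 CPM, against 63.1 and 59.9 CPM in the mutant. With Panx FL10B added, the heterozygote had 57.1 and 57.3 CPM and its mutant 50.2 and 50.1 CPM. In all 3 comparisons the nxf2-deficient libraries lay below their controls. The fall passed the test in the knockdown (log2 -0.46, SE 0.11, adjusted p = 0.0178) and in the mutant (-0.36, SE 0.11, adjusted p = 0.0232), but not with Panx FL10B (-0.19, SE 0.11, adjusted p = 0.255). The effects were not shown to differ from each other (mutant minus knockdown 0.09, adjusted p = 0.703; Panx FL10B minus mutant 0.17, adjusted p = 0.456). W1118 exceeded attp2 by a log2 of 1.11 (SE 0.11, adjusted p = 2.19e-06).

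Parp encodes the poly(ADP-ribose) polymerase that modifies chromatin proteins at loosened and damaged DNA. The attp2 libraries held 95.1 and 133 CPM and the knockdown 80.2 and 85.1 CPM. W1118 stood at 173 and 170.6 CPM, against 159.9 and 166 CPM in the mutant. With Panx FL10B added, the heterozygote had 131 and 124 CPM and its mutant 146 and 127 CPM, which overlapped. It fell in the knockdown (log2 -0.46, SE 0.13, adjusted p = 0.0333), where the attp2 libraries differed from each other by 33.1% of their mean. The mutant and the mutant with Panx FL10B differed from their controls by -0.08 (SE 0.13, adjusted p = 0.699) and 0.10 (SE 0.13, adjusted p = 0.646). W1118 exceeded attp2 by 0.59 (SE 0.13, adjusted p = 0.00184).

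uex encodes a membrane protein of the CNNM family involved in magnesium transport. The attp2 libraries held 192 and 312 CPM and the knockdown 184 and 215 CPM. W1118 stood at 282 and 336 CPM, against 283 and 248 CPM in the mutant. With Panx FL10B added, the heterozygote had 173 and 169 CPM and its mutant 198 and 193 CPM. Both wild-type stocks overlapped the group set against them. Its attp2 libraries were 47.6% of their mean apart, the widest gap of any member and group. No comparison passed for uex, with log2 differences of -0.34 in the knockdown (SE 0.18, adjusted p = 0.213), -0.22 in the mutant (SE 0.18, adjusted p = 0.389), 0.19 with Panx FL10B (SE 0.18, adjusted p = 0.496) and 0.30 between stocks (SE 0.18, adjusted p = 0.174).

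**Figure D2:**
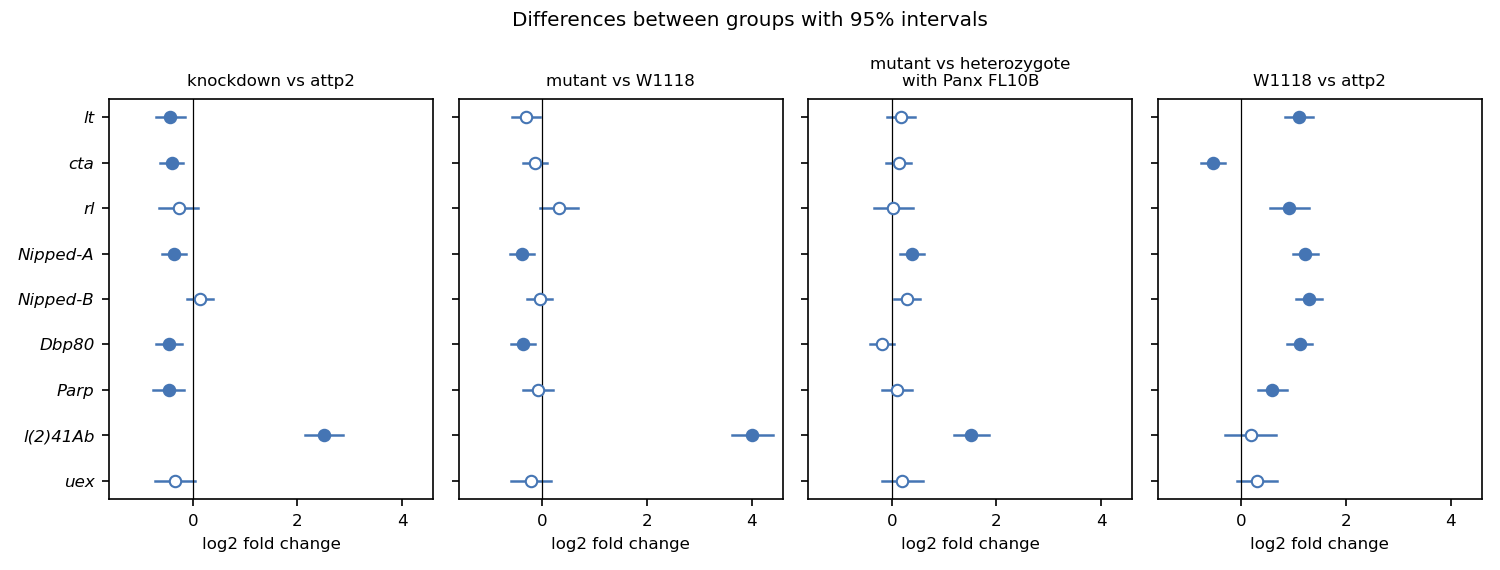
Log2 fold change of each gene (horizontal axis) in the 3 comparisons of nxf2 and between the wild-type stocks, with 95% intervals from the edgeR fit of 12 libraries. Filled points passed an adjusted p of 0.05. l(2)41Ab lies at 2.50, 4.02 and 1.52 in the nxf2 comparisons and at 0.18 between stocks, and the other 8 genes stay between -0.46 and 0.39 in the nxf2 comparisons and reach 1.29 between stocks.

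The germline knockdown was compared with attp2 to ask how these genes responded when nxf2 was reduced. Of the 9 genes, 1 rose (l(2)41Ab) and 5 fell (lt, cta, Nipped-A, Dbp80 and Parp), where 8% of all genes tested rose and 7.7% fell. The median log2 difference of the 9 genes was -0.36, against -0.03 over all tested genes. The falls were small, at most 1.38-fold. Without knockdown replicate 1 none of the 5 passed (adjusted p from 0.0876 to 0.227), with log2 values from -0.43 for Dbp80 to -0.27 for cta, and only l(2)41Ab was called. Without attp2 replicate 2 the calls were l(2)41Ab, lt and cta, and without attp2 replicate 1 lt was lost while rl and uex were called lower. In a fit of these 4 libraries alone, l(2)41Ab was the only call and the 5 falls had adjusted p between 0.245 and 0.313. Vitelline stage follicle cell markers, all 8 detected, summed to 20170 and 23490 CPM in the knockdown and 7963 and 8167 CPM in attp2, and their part in these differences was not tested.

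The mutant was compared with W1118 with the same question. l(2)41Ab rose and 2 of the 9 genes fell (Nipped-A and Dbp80), where 15% of all genes tested rose and 11.8% fell. The median of the 9 genes was -0.14 and that of all tested genes 0.04. Neither fall passed the test when W1118 replicate 1, W1118 replicate 2 or mutant replicate 2 was left out, nor that of Dbp80 without mutant replicate 1 (adjusted p from 0.0584 to 0.192). In these smaller designs the log2 values were -0.43 to -0.27 for Nipped-A and -0.41 to -0.31 for Dbp80. A fit of these 4 libraries alone called 5 genes, with lt lower and rl higher in addition. Against attp2 in place of W1118, lt, Nipped-A, Nipped-B, Dbp80 and Parp had log2 differences of 0.79, 0.84, 1.24, 0.75 and 0.52, all past the test and opposite in sign. The labels do not say which stock is the control of which group. With the stocks exchanged, l(2)41Ab and rl kept their direction in both comparisons, while in the knockdown cta (0.14) and Nipped-B (-1.15) changed sign. Late follicle cell markers, all 9 detected, summed to 9305 and 13150 CPM in the mutant and 6880 and 7181 CPM in W1118, and fat body markers, from 3 to 5 of 5 detected in the mutant, to 35.2 and 5.06 CPM against 0.257 and 0.306 CPM. Their part was not tested.

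In flies with Panx FL10B the mutant was set against the heterozygote, so that both groups carried the tethered Panx. l(2)41Ab and Nipped-A rose, 2 of 9 where 9.27% of all genes did so, and none fell where 10.2% did. The median was 0.18 for the 9 genes and -0.01 for all tested. Leaving out any of the 4 libraries ended the Nipped-A call (adjusted p from 0.0799 to 0.153) and not that of l(2)41Ab, while the log2 value of Nipped-A stayed between 0.35 and 0.43. A fit of these 4 libraries alone called 5 genes, all higher, with lt, Nipped-B and uex in addition. Late follicle cell markers, all 9 detected in each library, summed to 494 and 330.2 CPM in the mutant and to 17130 and 17490 CPM in the heterozygote. Their part in the Nipped-A and l(2)41Ab differences was not tested.

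**Figure D3:**
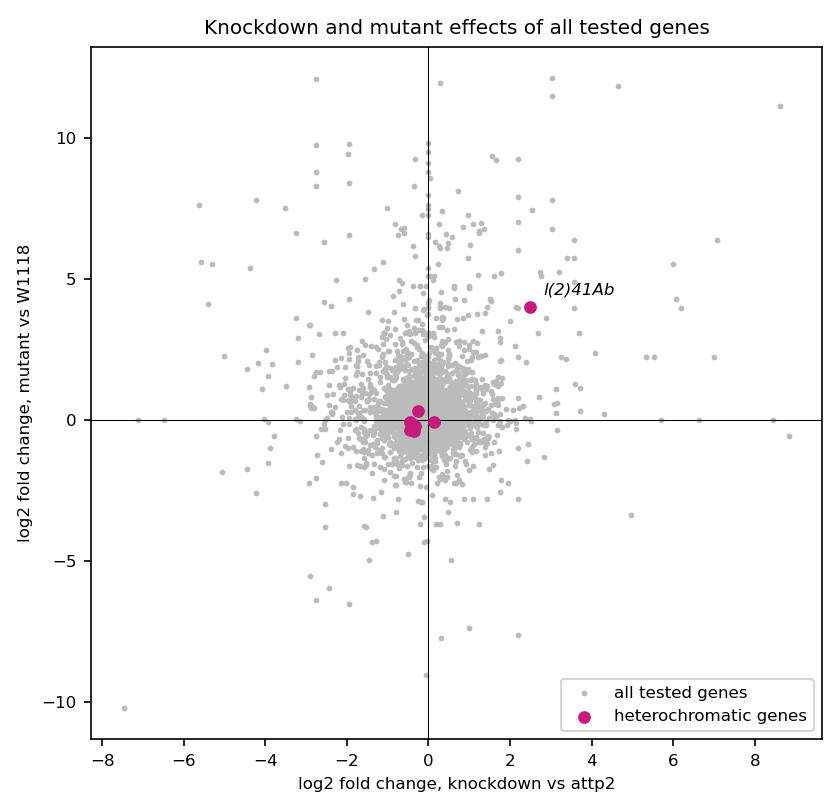
Log2 fold change of all 8638 tested genes in the knockdown against attp2 (horizontal) and in the mutant against W1118 (vertical), with the 9 heterochromatic genes as large points. l(2)41Ab, at 2.50 and 4.02, lies in the upper right, and the other 8 lie near the origin.

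The wild-type stocks differed from each other in most of these genes. In W1118 relative to attp2, 6 of the 9 genes were higher (lt, rl, Nipped-A, Nipped-B, Dbp80 and Parp) and cta was lower, where 25.2% of all genes tested were higher and 30.3% lower. The median of the 9 genes was 0.91 and that of all tested genes -0.07. These 7 calls held in each of the 11 alternatives run. This comparison shares its libraries with those of the knockdown and the mutant, so its values stand beside theirs and are not independent of them. Of 24 tested genes for heterochromatin proteins, 7 were higher and 9 lower in W1118 (median log2 0.08). Among them the gene for HP1a was at 412 CPM in W1118 and 1540.4 CPM in attp2 (log2 -1.90, adjusted p = 8.36e-09). Late follicle cell markers, all 9 detected, summed to 7181 and 6880 CPM in W1118 and to 21860 and 22210 CPM in attp2, and their part in the stock differences was not tested. Testis markers summed to between 7.96 and 9.78 CPM in W1118, with can, sa, comr, Mst87F and dj at 0, and to at most 1.28 CPM in all other libraries.

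The groups with Panx FL10B also differed from those without it. In the heterozygote with Panx FL10B, 7 of the 9 genes were lower than in W1118 and l(2)41Ab was higher, leaving lt uncalled, where 32% of all genes tested differed. The lower genes ranged from Parp (log2 -0.43, adjusted p = 0.0249) to Nipped-B (-1.40, adjusted p = 1.26e-06). In the mutant with Panx FL10B, 6 genes were lower than in the mutant (cta, rl, Nipped-A, Nipped-B, Dbp80 and l(2)41Ab) and none was higher, where 38.3% of genes differed. These pairs also differ in the submitters' processing notes, which name a counting tool only for the libraries without Panx FL10B. In the table, 26 genes had no count in any of the 4 Panx FL10B libraries and at least 10 counts in each of the other 8, among them CG30382 with 634 to 5578 counts there. No gene was at 0 in that way in attp2 and the knockdown together, or in W1118 and the mutant together. None of the 9 genes was among the 26, but 3 other pericentromeric genes were, CG40005 on 2L and CR42653 and CR41243 on 2R. Late follicle cell markers summed to 17130 and 17490 CPM in the heterozygote with Panx FL10B against 7181 and 6880 CPM in W1118. In the mutant with Panx FL10B they summed to 494 and 330.2 CPM, against 9305 and 13150 CPM in the mutant. The part of these markers and of the counting in the differences between groups with and without Panx FL10B was not tested.

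The 6 groups were ordered by mean for each gene, and a step is a pair of neighbouring groups that differed. Groups further apart can differ with no step between them, as W1118 and attp2 did in Parp (log2 0.59, adjusted p = 0.00184). In l(2)41Ab the order was mutant, mutant with Panx FL10B, knockdown, heterozygote with Panx FL10B, W1118 and attp2, and each neighbour differed from the next except the stocks (adjusted p = 0.524). Nipped-A followed the order W1118, mutant, mutant with Panx FL10B, attp2, heterozygote with Panx FL10B and knockdown, with only attp2 and the heterozygote not shown to differ (adjusted p = 0.933). Dbp80 had W1118 above the mutant, then the heterozygote, the mutant with Panx FL10B, attp2 and the knockdown, and its mutant, heterozygote and mutant with Panx FL10B did not differ beyond their spread as neighbours. In lt the 4 groups other than attp2 and the knockdown formed such a run, from 88.8 CPM in W1118 to 71.4 CPM in the mutant, above attp2 at 41.5 and the knockdown at 30.8 CPM. cta had its steps from attp2 to the knockdown and from the mutant to the mutant with Panx FL10B (adjusted p = 7.32e-05), where it dropped from 157 to 90.2 CPM. Nipped-B had a single step, from the mutant at 712 CPM to the mutant with Panx FL10B at 343 CPM (adjusted p = 1.24e-05). The single step of rl lay between W1118 and the mutant with Panx FL10B (adjusted p = 0.0135) and that of Parp between attp2 and the knockdown. No neighbouring groups differed in uex.

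Profiles over the 12 libraries were compared by Pearson's r of log2 CPM, as a description, since the libraries share groups, depth and scaling. The 36 pairs of the 9 genes had a median r of 0.58, from -0.62 between lt and cta, which lie on 2L with CG40005 between them, to 0.93 between Dbp80 and Parp, on 3L and 3R. Without l(2)41Ab the median of the 28 pairs was 0.69. cta correlated negatively with lt, rl, Dbp80, Parp and l(2)41Ab, and was close to 0 with Nipped-A. l(2)41Ab had no r above 0.28 with any other member.

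**Figure D4:**
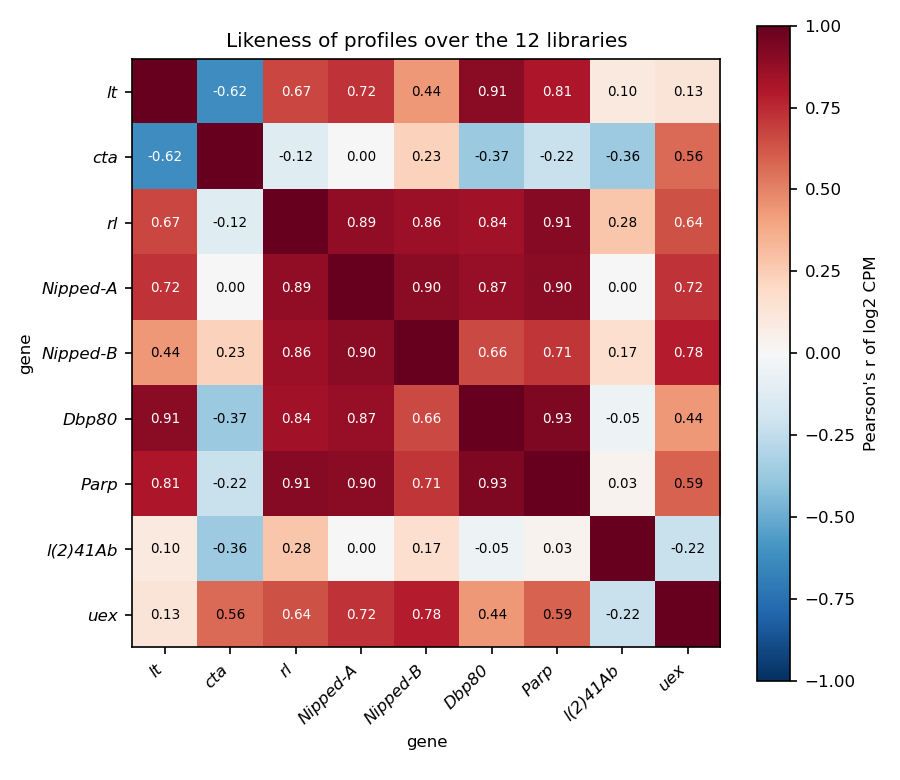
Pearson's r of log2 CPM over the 12 libraries for each pair of the 9 genes (both axes), with red for positive and blue for negative values. Nipped-A, rl, Dbp80 and Parp form a block of high values up to 0.93, whereas l(2)41Ab reaches at most 0.28 with any other gene and cta is positive chiefly with uex, at 0.56.

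Each gene was also set against all 8629 other tested genes. The gene most like l(2)41Ab was tomboy40 (r = 0.97), which also lies on 2R and averaged 2.37 CPM. Its means were 1.24 CPM in attp2, 2.63 in the knockdown, 1.26 in W1118, 4.13 in the mutant, 1.59 in the heterozygote and 3.36 in the mutant with Panx FL10B, the same order of groups as in l(2)41Ab. Only 7 genes reached an r of 0.9 with l(2)41Ab, and 9 did so with uex, against 49 to 188 with each of the other members. The most like was CG1927 for lt, CR32205 for cta, Graf for Nipped-A, CG33062 for Dbp80 and Hsepi for uex. For rl it was pho, which encodes a Polycomb group DNA-binding protein, and for Nipped-B it was Cam, which encodes calmodulin. These 7 values of r lay between 0.95 and 0.99.

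To see whether neighbours moved with the 9 genes, all counted genes between the centromeric end of each arm and the member farthest from it were listed. There were 61 such genes besides the members, of which 40 passed the filter on low counts, most of them on 2R. In the knockdown none of the 40 rose and 12 fell, with a median log2 of -0.30, close to the -0.36 of the members. Both medians come from the same attp2 and knockdown libraries and are not independent. How the 12 falls depend on single libraries is not reported here. In the mutant 12 rose and 4 fell (median 0.25, against -0.14 for the members), with Panx FL10B 4 rose and none fell (median 0.16), and between stocks 25 were higher and 7 lower in W1118 (median 0.80). Over all genes tested, the shares higher and lower were 8% and 7.7% in the knockdown, 15% and 11.8% in the mutant, 9.27% and 10.2% with Panx FL10B and 25.2% and 30.3% between stocks. CG40005, CR42653 and CR41243 had no count with Panx FL10B and entered that comparison at a log2 of 0. The largest rises in the mutant among genes of at least 10 CPM were CG41378, from 10.7 ± 0.52 to 42.2 ± 1.66 CPM (SD, n = 2; adjusted p = 3.22e-05), CG17691, from 31.7 ± 1.05 to 78.3 ± 11.7 CPM (adjusted p = 0.000161), and CG14464, from 84.1 ± 16.0 to 184 ± 44.8 CPM (adjusted p = 0.00129). The largest fall among genes of at least 10 CPM was that of Cht3, a chitinase gene on 2L, from 20.3 ± 0.72 to 4.29 ± 0.74 CPM (adjusted p = 0.000171). With Panx FL10B the rises were led by Atf6 (log2 0.79, adjusted p = 0.00246), Haspin (0.54, adjusted p = 0.0384) and Gprk1 (0.40, adjusted p = 0.0266). In the knockdown CR43242 (log2 -1.36, adjusted p = 0.00393), CR40461 (-0.69, adjusted p = 0.0102) and CG17883 (-0.69, adjusted p = 0.0438) fell. Below 10 CPM, Cht3 also fell in the knockdown (-2.15, adjusted p = 0.000859) and CR43242 in the mutant (-2.78, adjusted p = 0.000153).

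l(2)41Ab lies between rl and uex on 2R, and the 13 tested genes in that interval were looked at after their values had been seen. In the mutant 8 of the 13 rose and none fell (median log2 0.70), while of the other 27 neighbours 4 rose and 4 fell (median 0.11). Beside CG41378 and CG17691, these were Maf1, a repressor of RNA polymerase III (log2 1.00), MFS17 (0.70), CR41243 (0.75), CG40191 (0.64), CG41520 (2.81) and CG17684 (3.00). CG41520 and CG17684 each averaged 0.591 CPM in W1118, where 3 counts stood for 0.772 and 0.459 CPM. In the mutant they averaged 3.61 ± 2.42 and 4.05 ± 0.51 CPM (SD, n = 2), so their fold changes start near that floor. In the knockdown none of the 13 rose and 2 fell (median 0.06), and with Panx FL10B none was called (median 0.06), although CR41243 and CR42653 had no count in those 4 libraries. l(2)41Ab was thus the only one of the tested genes between rl and uex that passed the test for a rise in the knockdown or with Panx FL10B. Of its flanking members in the mutant, rl was at 0.33, with both libraries above those of W1118, and uex at -0.22, neither past the test. Between stocks, 7 of the 13 were higher and 3 lower in W1118, where 25.2% and 30.3% of all genes tested were. CG17691, at 67.4 CPM in attp2, and CG17684, at 2.80 CPM there, were lower in W1118 (adjusted p = 0.000109 and 0.00927).

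**Figure D5:**
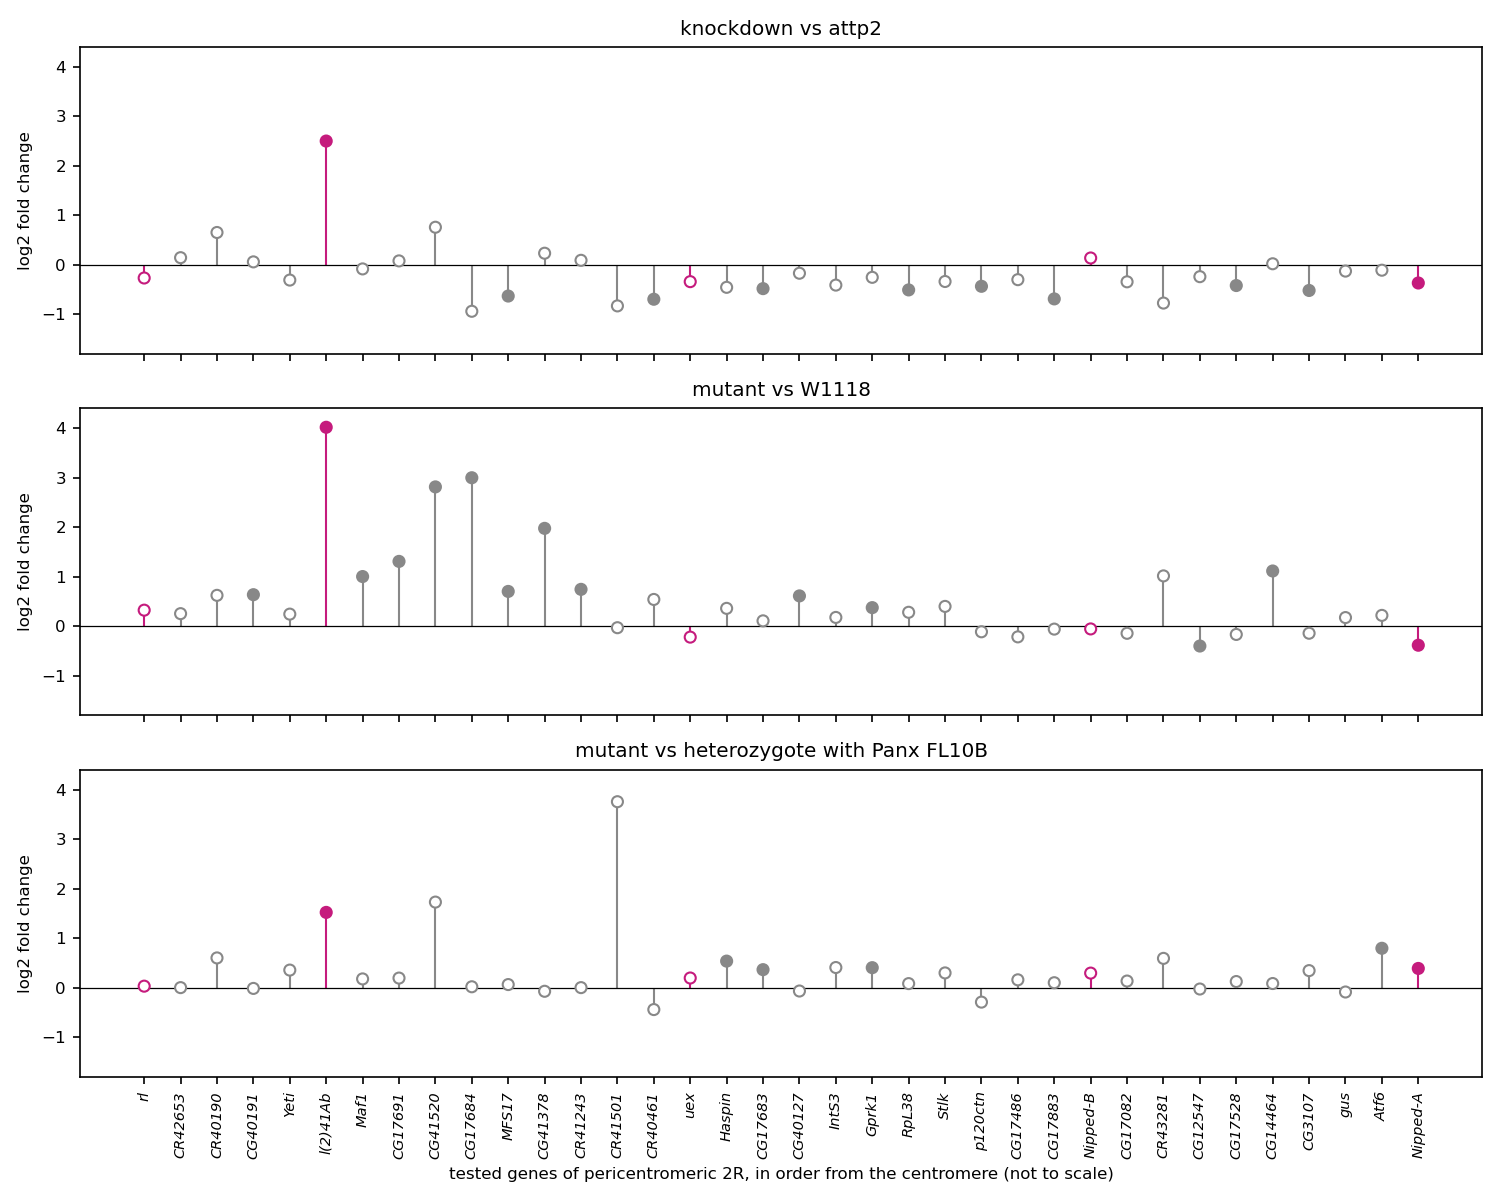
Log2 fold change (vertical axis) of the 36 tested genes of pericentromeric 2R in their order from the centromere (horizontal axis, not to scale), for the 3 comparisons of nxf2. Members are magenta, other genes grey, and filled points passed an adjusted p of 0.05. l(2)41Ab stands at 2.50, 4.02 and 1.52, several genes next to it pass the test for a rise in the mutant panel, and none of these passes it in the other panels. CR41243 and CR42653 are drawn at 0 in the last panel, where they had no count.

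Genes that work with the members were counted from 8 lists of partners, of which 96 genes were tested in all. In the knockdown 8 rose and 4 fell, in the mutant 6 rose and 20 fell, and with Panx FL10B 7 rose and 5 fell. Over all genes tested, 8% rose and 7.7% fell in the knockdown, 15% and 11.8% in the mutant, and 9.27% and 10.2% with Panx FL10B. Of 10 genes for cohesin and its loading, the partners of Nipped-B, 4 fell in the mutant (median log2 -0.27), among them SMC1 (-0.28, adjusted p = 0.0359), and 4 fell with Panx FL10B (median -0.28), among them SA (-0.71, adjusted p = 0.000368), while Nipped-B itself was not called in either. Of 24 genes of the Tip60 and SAGA complexes, which share Nipped-A, 3 rose and 1 fell in the mutant (median log2 0.18). The fall was that of dom, the Tip60 complex ATPase (-0.61, adjusted p = 0.0019), and Taf10b was among the rises (0.92, adjusted p = 0.00459). dom and E(Pc) rose in the knockdown (0.53, adjusted p = 0.00869, and 0.52, adjusted p = 0.0308), where Nipped-A fell.

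Of 20 Ras and MAP kinase genes, the partners of rl, 6 fell and none rose in the mutant, among them the repressor gene aop (-0.52, adjusted p = 0.00237) and the phosphatase gene csw (-0.43, adjusted p = 0.00325). csw rose in the knockdown (0.29, adjusted p = 0.0373) and with Panx FL10B (0.43, adjusted p = 0.00311). Of 16 genes for HOPS and late endosome sorting, the partners of lt, 1 rose and 2 fell in the knockdown and 1 rose and 4 fell in the mutant. CG32350, which encodes the HOPS subunit Vps11, fell in the knockdown as lt did (-1.21, adjusted p = 2.15e-05). It rose with Panx FL10B (0.36, adjusted p = 0.034), where lt was not called. cl fell in the knockdown (-0.62, adjusted p = 0.00389) and rose in the mutant (0.94, adjusted p = 0.000122). Of 11 genes for mRNA release at the nuclear pore, the partners of Dbp80, none was called in the knockdown or with Panx FL10B, while in the mutant Nup214 fell (-0.40, adjusted p = 0.0119) and Ref1 rose (0.57, adjusted p = 0.0156). Of 3 tested genes of poly(ADP-ribose) metabolism, Parg, which encodes the enzyme that removes the polymer, fell in the mutant (-0.67, adjusted p = 0.000436), where Parp was not called. Of 3 tested genes in the list drawn up for magnesium transport, as partners of uex, trpm rose in the knockdown (0.54, adjusted p = 0.0346). It fell in the mutant (-0.47, adjusted p = 0.0444), where CG7830, now named Ostgamma, rose (0.50, adjusted p = 0.0182). Not every gene of that list is itself a transporter.

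Proteins that build heterochromatin formed another list, which includes nxf2 and Panx. Of its 24 tested genes, 3 rose and 1 fell in the knockdown (median log2 0.04), the fall being that of nxf2 itself. Panx was among the rises (log2 0.67, adjusted p = 0.000589). In the mutant none rose and 8 fell (median -0.22), where 15% of all genes rose and 11.8% fell. The 8 include nxf2 itself (-1.12, adjusted p = 0.000152) and CG8290, which encodes the chromatin factor ADD1 (-0.58, adjusted p = 0.000433). With Panx FL10B 2 rose and 4 fell (median -0.21), with Hmr (-1.01, adjusted p = 0.000532) and the histone deacetylase gene Rpd3 (-0.84, adjusted p = 2.37e-05) lower. A list of 33 tested heterochromatic genes chosen by name, some of which lie in the same stretches, had no rise and 8 falls in the knockdown (median -0.29), 9 rises and 5 falls in the mutant (median 0.22) and 6 rises and no fall with Panx FL10B (median 0.11), to be read against the same shares of all genes. Of Y-linked genes, which female genomes lack, 1 of 10 passed the filter on low counts. That gene, CG41503, now named FDY, stood at 101 CPM in W1118 and 77.7 CPM in attp2. Where its reads came from was not tested.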

How the data were processed

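RNA-seq of ovaries was available as 1 table of 12 libraries. The authors deposited unnormalised read counts, 1 whole number for each gene and library. Per the labels' protocols, libraries were made from total RNA with not-so-random primers. For all 12 libraries the submitters' processing notes name the dm3 genome, STAR 2.5.2a, cutadapt 1.16 and bcl2fastq 1.8.4. They name featureCounts 1.6.1 and deepTools 2.5.7 only for the 8 libraries without Panx FL10B. How the other 4 were counted, the annotation and whether strand was used are not given. Libraries were grouped by title.

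Counts were tested with edgeR 4.0.16 (R 4.3.3), keeping 8638 of 15446 genes by filterByExpr. After TMM scaling, 1 robust quasi-likelihood model held the 6 groups (6 residual degrees of freedom, common biological variation 0.102). p-values were adjusted by Benjamini-Hochberg over all genes tested, and a gene was called below 0.05. Replicates were not equally spread (W1118 had the lowest chi-square over its degrees of freedom, 1.59, and attp2 the highest, 35.7), and the model gives all groups 1 shared spread. Intervals and the 3-count floor cover counting or model error only. Correlations used log2 CPM with a prior count of 2. Levels per length used exon unions of Ensembl 115 (BDGP 6), and gene order and names RefSeq Release 6, which matched 15088 table genes. Figures used matplotlib 3.10.9.

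The 9 genes and all gene lists were chosen with earlier results of these data known. Named were every member in every comparison and the gene most like each member. Of other pericentromeric genes of at least 10 CPM, the text gives some of the 3 largest called rises and falls per comparison. Of each list it gives some of the 2 called genes with the smallest p. The gene most like Parp and the partner list of cta are not reported here. Other genes between rl and uex, and CG30382, were described after values were seen. Alternatives were upper-quartile or no scaling, 2 other filters, a replicate block, only the libraries compared, each library left out, DESeq2 1.42.0, and the other stock or the mean of both as control. The changes of stock were run for the knockdown and the mutant comparisons alone, not for the differences of effects.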

Additional observations from a re-analysis of the deposited data

Results flagged for a closer look

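The effect of nxf2 on l(2)41Ab differed between the mutant and the knockdown, by a log2 of 1.52 (SE 0.26, adjusted p = 0.00141), with a rise of 4.02 against W1118 in the mutant and of 2.50 against attp2 in the knockdown. The same gene responded less with Panx FL10B than in the mutant, by a log2 of -2.50 (SE 0.25, adjusted p = 1.13e-05). Over the 15 alternatives run for each difference, the ranges were 1.35 to 1.81 and -2.79 to -2.33. The effect on Nipped-A differed between Panx FL10B and the mutant by a log2 of 0.77 (SE 0.15, adjusted p = 0.00299), from 0.39 in the former and -0.38 in the latter. This difference ranged from 0.66 to 0.89 over 15 alternatives. Leaving out any library of the Panx FL10B comparison ended the call of that effect on its own (log2 0.35 to 0.43). No alternative for the differences of effects exchanged the stocks. Against attp2 in place of W1118 the mutant effect on Nipped-A was 0.84, above the 0.39 with Panx FL10B. The controls of the differences with Panx FL10B were not alike, being a heterozygote in one comparison and a wild-type stock in the other. The heterozygote with Panx FL10B lay below W1118 in Nipped-A (log2 -1.24) and above it in l(2)41Ab (log2 1.36). How its libraries were counted is not given. The differences of effects were flagged because the test of the difference between 2 comparisons passed its threshold.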

How the results depend on the processing

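The calls of l(2)41Ab in the 3 nxf2 comparisons and the 7 calls between stocks held under every alternative run, and scaling moved the median of all genes by at most 0.066. The other calls were not as firm. Fitting only the libraries compared gave 1 member called in the knockdown, 5 in the mutant, 5 with Panx FL10B and 6 for the difference of effects between Panx FL10B and the mutant. Against attp2, 8 members were called in the mutant. Leaving out 1 library at a time gave 1 to 7 members in the knockdown, 1 to 2 in the mutant, 1 with Panx FL10B, 7 to 8 between stocks, 1 to 4 for the mutant minus the knockdown, 2 for Panx FL10B minus the mutant and 9 for any of 6 groups. DESeq2 lost lt in the knockdown (adjusted p = 0.0616) and Dbp80 in the mutant (adjusted p = 0.0605). Replicate numbers did not pair the libraries (15 correlations of deviations from -0.148 to 0.0772), and the replicate block left 6 members called in the knockdown, 3 in the mutant, 2 with Panx FL10B and 7 between stocks.

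With the other stock as control, log2 values changed sign in the knockdown for cta (0.14) and Nipped-B (-1.15) and in the mutant for lt (0.79), Nipped-A (0.84), Nipped-B (1.24), Dbp80 (0.75), Parp (0.52) and uex (0.078). With the mean of both stocks they did so for Nipped-B in the knockdown (-0.51) and, in the mutant, for lt (0.24), Nipped-A (0.23), Nipped-B (0.59), Dbp80 (0.19) and Parp (0.22). Values near 0 also changed sign: Nipped-A for the mutant minus the knockdown under upper-quartile scaling (0.036), no scaling (0.042) and no filter (0.025), and rl with Panx FL10B under no scaling (-0.0073). When 1 library was left out, sign changes gave ranges of -0.57 to 0.12 for rl and -0.65 to 0.055 for uex in the knockdown, -0.20 to 0.077 for Nipped-B in the mutant, and -0.042 to 0.11 for rl and -0.0064 to 0.21 for Parp with Panx FL10B. Between stocks the ranges were -0.12 to 0.34 for l(2)41Ab and -0.012 to 0.69 for uex. For the mutant minus the knockdown they were -0.048 to 0.26 for lt, -0.15 to 0.097 for Nipped-A, -0.025 to 0.19 for Dbp80 and -0.28 to 0.42 for uex. The causes were not tested beyond what each alternative changes. Depth limits l(2)41Ab most, with 19 to 62 counts in the wild-type libraries.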
